A study of Caenorhabditis elegans with 12 samples.

Results

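The genes described here are 35 listed genes of the nematode Caenorhabditis elegans that pair homologous chromosomes in meiosis and let them cross over. A member was represented by a probe set that the platform annotation assigns to that gene alone, and, where a gene had more than 1, by the probe set with the highest mean over all arrays. By that rule 32 of the 35 genes were measured, among 17118 genes on the array. The kleisin gene coh-4, the nuclear envelope gene zyg-12 and the crossover control gene rec-1 had no probe set of their own and were not analysed here. No member was chosen by its measured values, but the list was drawn up with earlier results of these data known.

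All worms were wild-type hermaphrodites, taken as young adults of 3 days from age-synchronized plates. Each of the 4 groups spent 24 h without food in K-medium, a salt solution, at 20 °C, so that fasting was common to the controls too. The control group received nothing else, and the TiO2 group received titanium dioxide particles at a dose not given in the sources used here. In the UV group, ultraviolet light was given for 4 h and the remaining 20 h were spent beside the controls. The UV+TiO2 group received both exposures. RNA of whole worms was measured on 12 arrays, 3 per group, as log2 expression values. The labels do not state whether replicates were separate worm cultures, so the p-values speak only of the scatter among these samples and that scatter may be technical.

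In the adult hermaphrodite gonad, germ cells leave mitosis near the distal tip and pass through meiotic prophase in a row. Homologous chromosomes find each other through special regions near their ends, which zinc-finger proteins bind and link through the nuclear envelope to the cytoskeleton. A protein axis forms along each chromosome, and the synaptonemal complex then joins the paired axes like the rungs of a ladder. SPO-11 cuts the DNA, and on each chromosome pair usually a single cut is turned into a crossover, which holds the pair together until the first division. RNA of whole worms cannot tell a smaller number of cells of a type from less RNA per cell, and every level below is subject to that.

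Most of these genes rose after UV, with or without TiO2, and none passed the test with TiO2 alone. In UV against control 25 of the 32 measured genes rose and 0 fell (limma, Benjamini-Hochberg adjusted p under 0.05 over 22548 probe sets), and the median change of the 32 was 0.71 on the log2 scale, a 1.64-fold rise. Over all probe sets 27.5% were called higher and 23.1% lower in that comparison, and the median change was 0.11. The 7 that did not pass were htp-1, him-3, syp-1, syp-3, him-8, him-19 and dsb-1, with log2 changes from −0.12 to 0.46. The standard error (SE) of a member's change ranged from 0.08 to 0.30, with a median of 0.18, and the number of arrays limits this precision.

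In UV+TiO2 against control 22 members rose and 0 fell, with a median of 0.55, against 31.9% of all probe sets called higher, 22.6% called lower and a median of 0.15. In UV+TiO2 against TiO2, which uses none of the control or UV arrays, 25 rose and 0 fell, with a median of 0.61. There 32.3% of all probe sets were called higher and 22.2% lower. The comparisons of UV with control and of UV+TiO2 with TiO2 share no array, although they share 1 estimate of spread. Of the 25 members that rose in each, 24 rose in both, which is 96.0% of either list. Of the 6198 probe sets called higher in the first, 80.6% were also higher in the second, and of the 7282 called higher in the second, 68.6% were higher in the first. A moderated F-test over the 4 groups called 25 of the 32 members, against 55.5% of all probe sets.

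All 3 UV arrays lay above all 3 control arrays for 24 of the 32 members, against 31.4% of all probe sets. The 3 UV+TiO2 arrays lay above the controls for 21 members, against 36.8%. All 6 irradiated arrays lay above all 6 others for 21 members, against 22.9%. Control replicate 1 lay farthest from its group: it was the highest of its 3 arrays for 19 of the 32 members, against 29.7% of all probe sets. It lay a median of 0.45 above the mean of the other controls. TiO2 replicate 1 was the lowest of its group for 24 members, against 34.7% of all probe sets, by a median of −0.37. Irradiated arrays had similar counts with smaller steps. UV replicate 1 was the highest of its group for 20 members (30.3% of all probe sets), by a median of 0.12. UV replicate 3 was the lowest for 19 (33.4%) and UV+TiO2 replicate 3 for 21 (32%), by medians of −0.10 and −0.12. Without control replicate 1, 27 members rose in UV against control and 26 in UV+TiO2 against control. Without TiO2 replicate 1, 20 rose in UV+TiO2 against TiO2. Array correlations across probe sets ran from 0.931 to 0.998 and were at least 0.987 within a group, and the median SD of a member was 0.31 in the controls, 0.22 with TiO2, 0.10 after UV and 0.11 after UV+TiO2.

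**Figure D1:**
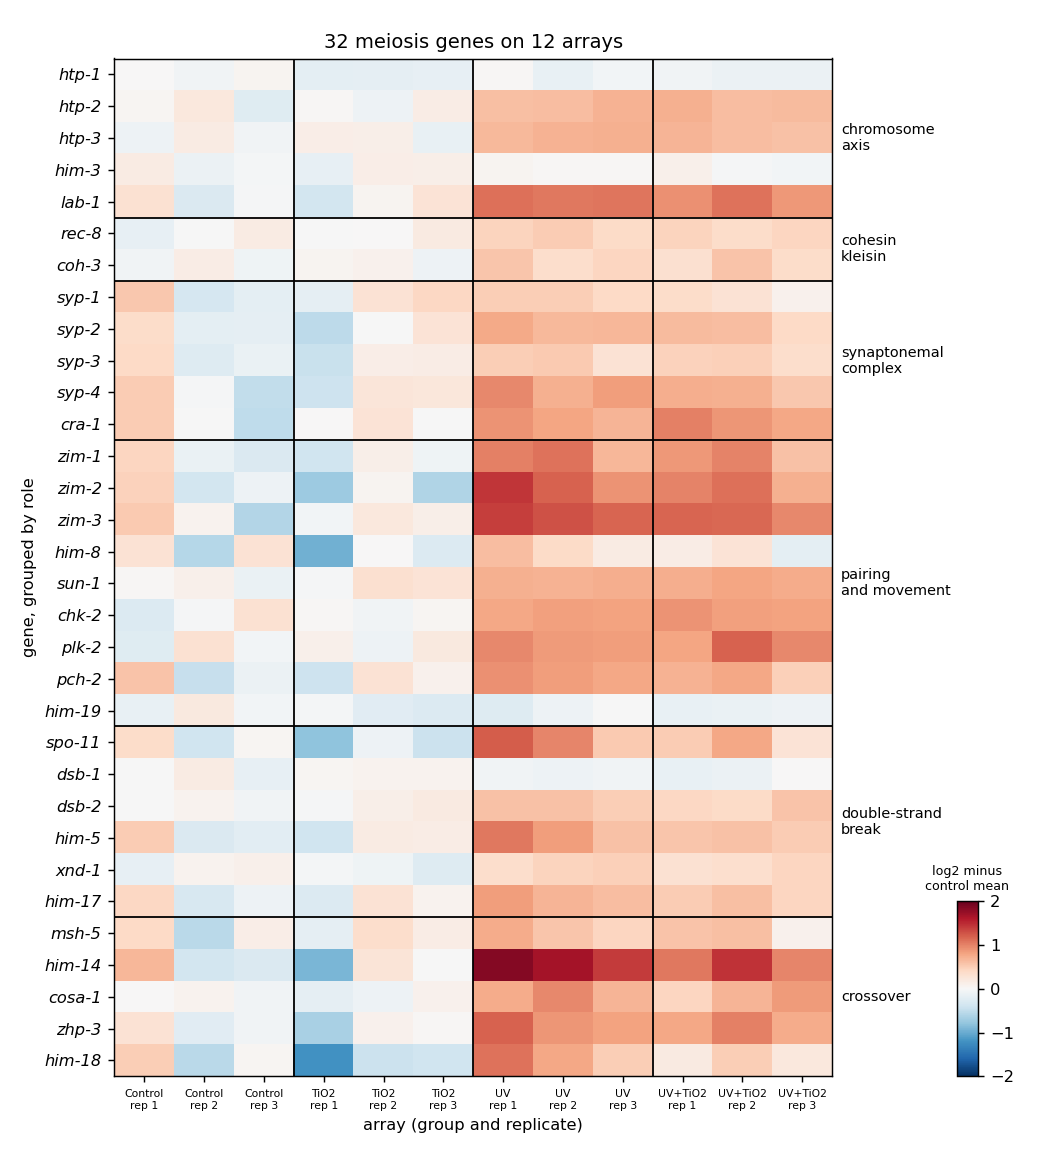
Log2 expression value of 32 meiosis genes (rows, grouped by role) on each of the 12 arrays (columns), minus the gene's mean over the 3 control arrays. Red is higher and blue lower than the control mean. The 6 irradiated columns are red for most rows, most deeply for him-14, zim-2 and zim-3, while htp-1, him-3, him-19 and dsb-1 stay pale.

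The chromosome axis is the protein core from which each chromosome's loops extend, and its HORMA-domain proteins are HTP-1, HTP-2, HTP-3 and HIM-3. Of the 5 axis genes measured 3 rose after UV and 0 fell. The related genes htp-1 and htp-2 encode nearly identical proteins, of which HTP-1 is the one that coordinates pairing with synapsis. The gene htp-2 read 9.19, 9.35 and 8.90 on the control arrays and 9.75, 9.76 and 9.84 after UV. With TiO2 it read 9.16, 9.04 and 9.30, and with UV+TiO2 9.86, 9.76 and 9.78. All 6 irradiated arrays lay above the 6 others, and htp-2 rose by 0.64 (SE 0.11, adjusted p = 0.000436 by limma). The gene htp-1 read 10.92, 10.85 and 10.97 in the controls, 10.94, 10.76 and 10.86 after UV, 10.72, 10.74 and 10.75 with TiO2 and 10.85, 10.80 and 10.79 with both. Its UV and control arrays overlapped, and the change of −0.06 (95% interval −0.23 to 0.11) did not pass. When arrays were centred on their median it was 0.12 and again did not pass.

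A constant shift of an array's values cancels in the difference of the pair within that array. On the log2 scale, htp-2 minus htp-1 was 0.63 higher in the irradiated arrays than in the others, averaged over worms with and without TiO2, or 0.70 without TiO2 and 0.56 with it. This difference was computed after the values of both genes were seen and is given as a description, with no test. The probes of each gene end in the suffix of a single-transcript design, but the genes are close copies and cross-hybridization was not tested.

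Among the other axis genes, htp-3, the platform on which the other HORMA proteins assemble, read 9.75, 10.03 and 9.79 in the controls and 10.50, 10.55 and 10.57 after UV. It rose by 0.68 (SE 0.10, adjusted p = 9.7e-05 by limma), with no overlap between the groups. The largest axis change was that of lab-1, whose product marks the long arm of the bivalent and protects cohesion there. It read 8.39, 7.79 and 8.05 in the controls, 9.18, 9.14 and 9.15 after UV, 7.71, 8.13 and 8.35 with TiO2 and 8.99, 9.16 and 8.95 with both. The 6 irradiated arrays were all higher than the 6 others, and the rise after UV was 2.11-fold (1.08, SE 0.16, adjusted p = 0.000135 by limma). The gene him-3, which encodes the HORMA protein needed for axis and synapsis, had a change of 0.03 (adjusted p = 0.818 by limma) on the chosen probe set, which is of the kind that can detect several transcripts. Its other probe set, with a lower mean level, rose by 0.62 (adjusted p = 0.00021 by limma), so the 2 probe sets of him-3 disagreed.

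Cohesin rings tie sister chromatids, and in meiosis their closing subunit is a kleisin of the germ line. Both kleisin genes measured rose in all 3 comparisons of irradiated with unirradiated worms. The level of rec-8, the kleisin that holds sisters until the second division, was 9.38, 9.54 and 9.70 in the controls and 9.98, 10.05 and 9.91 after UV, a rise of 0.44 (SE 0.10, adjusted p = 0.00196 by limma). The level of coh-3, which acts with its near-copy coh-4 in axis assembly, was 7.69, 7.91 and 7.66 in the controls and 8.30, 8.10 and 8.19 after UV, 7.81, 7.84 and 7.65 with TiO2 and 8.07, 8.33 and 8.12 with both. It rose by 0.44 (SE 0.10, adjusted p = 0.00315 by limma), and 0.29 when arrays were weighted by their quality. The controls and the UV arrays did not overlap for either gene, and any cross-hybridization of coh-3 probes with coh-4 RNA was not tested.

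The synaptonemal complex holds paired axes together, and syp-1 to syp-4 encode its central proteins. Of the 5 genes of this group, 3 rose after UV: syp-2, syp-4 and cra-1. The gene syp-4 read 8.29, 7.75 and 7.29 in the controls, 8.73, 8.49 and 8.61 after UV, 7.36, 8.02 and 8.01 with TiO2 and 8.50, 8.49 and 8.31 with both. Its irradiated arrays were all above the unirradiated ones, by the smallest margin against control replicate 1, and it rose by 0.83 (SE 0.22, adjusted p = 0.00748 by limma). For syp-2 the controls read 9.80, 9.23 and 9.24, the UV arrays 10.19, 10.07 and 10.09, the TiO2 arrays 8.89, 9.41 and 9.70 and the UV+TiO2 arrays 10.06, 10.04 and 9.82. Here too no irradiated array fell among the others, with a rise of 0.69 (SE 0.19, adjusted p = 0.00878 by limma).

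The other SYP genes were less clear. The gene syp-1 read 9.66, 8.79 and 8.93 in the controls, 9.62, 9.62 and 9.53 after UV, 8.94, 9.42 and 9.54 with TiO2 and 9.50, 9.41 and 9.21 with both. Control replicate 1 was above the UV arrays, and the change of 0.46 (95% interval 0.01 to 0.90) had an adjusted p of 0.0784 by limma. Without control replicate 1 the change was 0.73 with an adjusted p of 0.00194. The gene syp-3 read 9.15, 8.48 and 8.61 in the controls, 9.25, 9.27 and 9.03 after UV, 8.30, 8.88 and 8.89 with TiO2 and 9.21, 9.23 and 9.11 with both. UV replicate 3 lay below control replicate 1, and the change of 0.43 had an adjusted p of 0.0622 by limma, or 0.63 and 0.00566 without control replicate 1. In UV+TiO2 against TiO2, syp-3 rose by 0.49 (adjusted p = 0.0354 by limma) and syp-1 differed by 0.07 (adjusted p = 0.764). Leaving out TiO2 replicate 1 ended that call of syp-3, with a change of 0.30 and an adjusted p of 0.14, as did leaving out UV+TiO2 replicate 1, 2 or 3, with adjusted p of 0.086, 0.0885 and 0.0583. The gene cra-1, which encodes a subunit of an acetyltransferase needed for the complex to polymerize properly, rose by 0.79 after UV (adjusted p = 0.00453 by limma), and its second probe set rose by 0.55.

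Pairing centres near one end of each chromosome are bound by a family of 4 zinc-finger proteins: HIM-8 binds that of the X chromosome, and ZIM-1, ZIM-2 and ZIM-3 those of the autosomes. In the RefSeq gene order of assembly WBcel235 the genes zim-1, zim-2, zim-3 and him-8 lie next to one another, with no other protein-coding gene between them. The 3 ZIM genes rose, and him-8 did not pass. The gene zim-3 read 8.40, 7.95 and 7.29 in the controls, 9.26, 9.14 and 9.05 after UV, 7.82, 8.08 and 7.99 with TiO2 and 9.04, 9.02 and 8.84 with both. Control replicates 1 and 3 were more than 1 log2 unit apart, and still every irradiated array exceeded every other array. The rise after UV was 2.42-fold (1.27, SE 0.21, adjusted p = 0.00023 by limma).

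The gene zim-2 read 7.36, 6.53 and 6.78 in the controls and 8.31, 8.07 and 7.78 after UV, 6.17, 6.94 and 6.30 with TiO2 and 7.89, 7.99 and 7.61 with both. It rose 2.25-fold (1.17, SE 0.23, adjusted p = 0.0011 by limma), with no overlap between irradiated and unirradiated arrays. For zim-1 the values were 7.08, 6.51 and 6.36 in the controls, 7.66, 7.73 and 7.31 after UV, 6.25, 6.77 and 6.56 with TiO2 and 7.51, 7.64 and 7.23 with both. It rose 1.89-fold (0.92, SE 0.19, adjusted p = 0.00166 by limma), again with no overlap. The gene him-8 read 9.20, 8.34 and 9.19 in the controls, 9.52, 9.29 and 9.07 after UV, 7.94, 8.91 and 8.64 with TiO2 and 9.06, 9.19 and 8.72 with both. UV replicate 3 lay below control replicates 1 and 3, and the change of 0.38 (95% interval −0.19 to 0.96) had an adjusted p of 0.243 by limma. With array weights, which gave control replicates 1 and 3 low weights, it was 0.75 with an adjusted p of 0.0039.

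The difference of zim-3 and him-8 within an array, a pair picked because zim-3 changed most and him-8 least of these neighbours after UV, is a description with no test. It was 0.70 higher (log2) in the irradiated arrays, or 0.89 without TiO2 and 0.51 with it. The genes that flank the row in the same order moved the other way: svct-1 fell by 0.32 (adjusted p = 0.0344) and efn-2, which encodes an ephrin, fell by 1.48 (adjusted p = 2.45e-05 by limma) in UV against control.

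**Figure D2:**
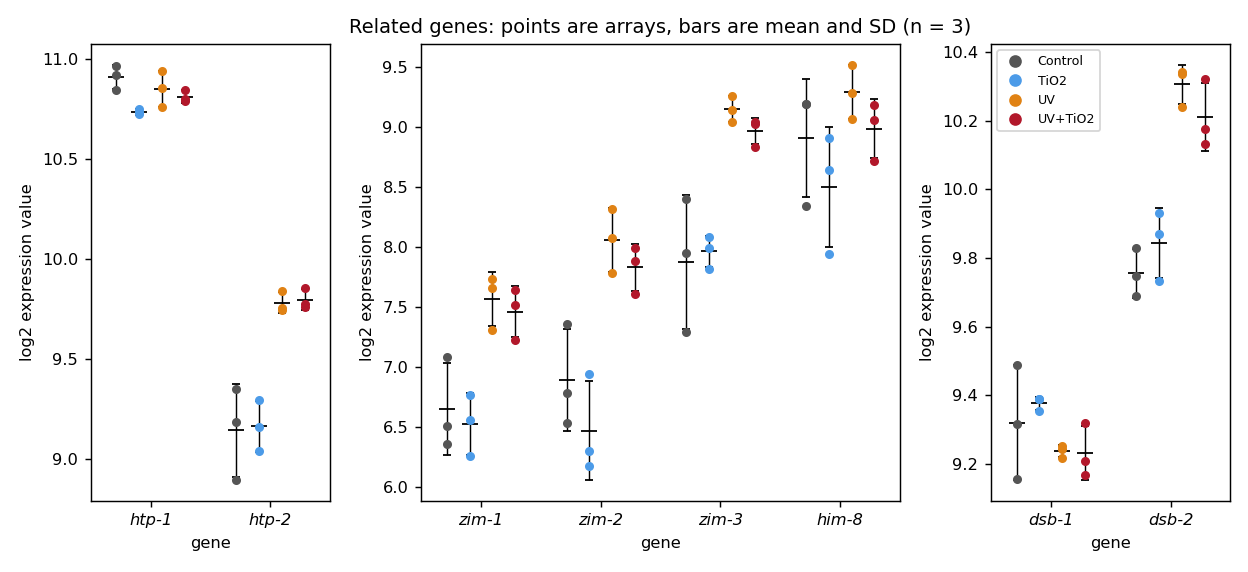
Log2 expression values of related meiosis genes by group, in 3 panels: htp-1 and htp-2, the 4 zinc-finger genes of the pairing centres, and dsb-1 and dsb-2. Points are arrays and bars the mean and SD of 3 arrays. The UV and UV+TiO2 points of htp-2, zim-1, zim-2, zim-3 and dsb-2 lie above the others, while those of htp-1, him-8 and dsb-1 overlap them. Levels of different genes are not comparable, since each has its own probes.

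Pairing also needs a bridge to the cytoskeleton and kinases that start it. The gene sun-1 encodes the inner nuclear envelope protein of that bridge, whose outer partner is ZYG-12. It read 10.90, 10.98 and 10.75 in the controls, 11.59, 11.57 and 11.60 after UV, 10.85, 11.20 and 11.16 with TiO2 and 11.60, 11.67 and 11.62 with both. Its 6 irradiated arrays spanned a narrow range above all others, and the rise after UV was 0.71 (SE 0.10, adjusted p = 7.17e-05 by limma). A second sun-1 probe set, of the kind that can detect several transcripts, differed by 0.06 (adjusted p = 0.554), and the mean of both rose by 0.38.

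The gene chk-2, which encodes the kinase that opens pairing and break formation, read 5.65, 5.90 and 6.22 in the controls, 6.69, 6.74 and 6.73 after UV, 5.94, 5.85 and 5.97 with TiO2 and 6.81, 6.74 and 6.73 with both. The irradiated arrays lay together above the rest, a rise of 0.80 (SE 0.12, adjusted p = 0.000108 by limma). The gene plk-2, which encodes the Polo-like kinase recruited to pairing centres, read 8.82, 9.37 and 9.01 in the controls, 10.03, 9.91 and 9.91 after UV, 9.17, 8.96 and 9.26 with TiO2 and 9.86, 10.25 and 10.03 with both. It rose by 0.88 after UV (SE 0.14, adjusted p = 0.000219 by limma), with no overlap, and its second probe set rose by 0.47. The gene pch-2, whose AAA+ ATPase remodels HORMA proteins and paces synapsis, read 9.92, 8.88 and 9.24 in the controls, 10.26, 10.17 and 10.12 after UV, 8.94, 9.63 and 9.43 with TiO2 and 10.04, 10.12 and 9.83 with both. Control replicate 1 came close to the UV arrays and exceeded UV+TiO2 replicate 3, and the rise after UV was 0.84 (SE 0.23, adjusted p = 0.00798 by limma).

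The last gene of this group, him-19, is needed for several prophase events, pairing among them. It read 7.78, 8.11 and 7.87 in the controls and 7.67, 7.82 and 7.92 after UV, which overlap, and its change of −0.12 had an adjusted p of 0.365 by limma. With array weights it was −0.23 with an adjusted p of 0.0249, the only alternative under which it passed in that comparison.

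Crossovers start from DNA double-strand breaks. Of the 6 break genes measured 5 rose after UV and 4 after UV+TiO2 against control. The gene spo-11 encodes the topoisomerase-like enzyme that makes the cut. It read 7.94, 7.17 and 7.60 in the controls, 8.79, 8.54 and 8.09 after UV, 6.77, 7.47 and 7.14 with TiO2 and 8.08, 8.35 and 7.84 with both. The UV arrays were above all controls, and the rise was 1.87-fold (0.90, SE 0.23, adjusted p = 0.00612 by limma). With UV+TiO2 replicate 3 below control replicate 1, the change in UV+TiO2 against control was 0.52 (adjusted p = 0.0764 by limma), and 0.70 with an adjusted p of 0.0281 without control replicate 1. Against TiO2 alone the rise was 0.96 (adjusted p = 0.00415).

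The genes dsb-1 and dsb-2 encode related proteins that license chromosomes for breaks in early prophase. The gene dsb-2 read 9.75, 9.83 and 9.69 in the controls, 10.34, 10.34 and 10.24 after UV, 9.73, 9.87 and 9.93 with TiO2 and 10.18, 10.13 and 10.32 with both. It rose by 0.55 after UV (SE 0.09, adjusted p = 0.000189 by limma) with no overlap, and its second probe set rose by 1.27 (adjusted p = 1.23e-05), so that their mean rose by 0.91. The gene dsb-1 read 9.31, 9.49 and 9.16 in the controls, 9.24, 9.22 and 9.25 after UV, 9.36, 9.39 and 9.39 with TiO2 and 9.17, 9.21 and 9.32 with both. The UV arrays lay inside the range of the controls, and the change of −0.08 (95% interval −0.28 to 0.11) had an adjusted p of 0.464 by limma. The log2 ratio of dsb-2 to dsb-1, a pair also chosen after its values were seen, was 0.57 higher in irradiated arrays, given as a description with no test. With array weights dsb-1 passed as lower, at −0.20 with an adjusted p of 0.0304.

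The gene him-5 promotes breaks on the X chromosome in particular. It read 7.64, 6.83 and 6.92 in the controls, 8.19, 7.96 and 7.72 after UV, 6.73, 7.29 and 7.28 with TiO2 and 7.68, 7.72 and 7.64 with both. The rise after UV was 0.83 (SE 0.21, adjusted p = 0.00491 by limma), and UV replicate 3 exceeded control replicate 1 by little. The chromatin genes of this group also rose: xnd-1, which shapes where crossovers fall, rose by 0.42 (adjusted p = 0.0028 by limma), and him-17, needed for breaks and histone methylation, by 0.71 (adjusted p = 0.00449 by limma).

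All 5 genes of crossover formation rose after UV. The largest change of any of the 32 genes was that of him-14, which encodes the MSH-4 subunit of the MutS-like clamp that marks crossover sites. It read 6.82, 5.80 and 5.87 in the controls, 8.005, 7.83 and 7.56 after UV, 5.25, 6.42 and 6.16 with TiO2 and 7.21, 7.61 and 7.14 with both. Control replicate 1 was about 1 log2 unit above the other controls and TiO2 replicate 1 about 1 below its group, and all 6 irradiated arrays still lay above all others. The rise was 3.10-fold after UV (1.63, SE 0.30, adjusted p = 0.000679 by limma) and 1.16 (log2, adjusted p = 0.00695) after UV+TiO2. Its partner msh-5, the other subunit of the clamp, read 7.96, 7.02 and 7.69 in the controls and 8.31, 8.11 and 7.99 after UV, where UV replicate 3 exceeded control replicate 1 by little. It rose by 0.57 (adjusted p = 0.0467 by limma), and without control replicate 2 the change was 0.31 with an adjusted p of 0.21. Leaving out control replicate 3, any of the UV arrays, TiO2 replicate 3 or UV+TiO2 replicate 1 or 2 also ended the call of msh-5, with adjusted p from 0.051 to 0.136. So did limma fits of only the arrays compared (adjusted p = 0.0696) and with the replicate number as a block (adjusted p = 0.0657). Its second probe set rose by 0.76 (adjusted p = 0.011).

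The gene zhp-3 encodes a RING-finger protein that moves from the synaptonemal complex to the crossover site. It read 8.81, 8.29 and 8.45 in the controls, 9.70, 9.41 and 9.33 after UV, 7.87, 8.61 and 8.54 with TiO2 and 9.30, 9.53 and 9.26 with both. Every irradiated array was above every other on this probe set, and it rose 1.94-fold after UV (0.96, SE 0.19, adjusted p = 0.00112 by limma). The second zhp-3 probe set rose by 0.37 after UV (adjusted p = 0.00527 by limma). It did not pass by limma in UV+TiO2 against control (0.18, adjusted p = 0.113) or against TiO2 (0.16, adjusted p = 0.169), where arrays overlapped. The gene cosa-1, which encodes a cyclin-like protein found at designated crossover sites, read 8.04, 8.10 and 7.96 in the controls and 8.78, 8.99 and 8.72 after UV. It rose by 0.79 (SE 0.12, adjusted p = 0.000112 by limma), with no overlap.

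The gene him-18, the worm SLX4 that gathers nucleases to resolve crossover intermediates, varied widely between arrays. It read 8.04, 7.004 and 7.59 in the controls, 8.62, 8.32 and 8.03 after UV, 6.34, 7.12 and 7.15 with TiO2 and 7.72, 8.03 and 7.76 with both. UV replicate 3 lay just below control replicate 1, and TiO2 replicate 1 was the lowest array by a wide margin. The rise after UV was 0.78 (adjusted p = 0.0254 by limma), and 0.51 with an adjusted p of 0.117 without control replicate 2. Leaving out UV replicate 1 or UV replicate 2 also ended the call, with adjusted p of 0.0963 and 0.0608.

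**Figure D3:**
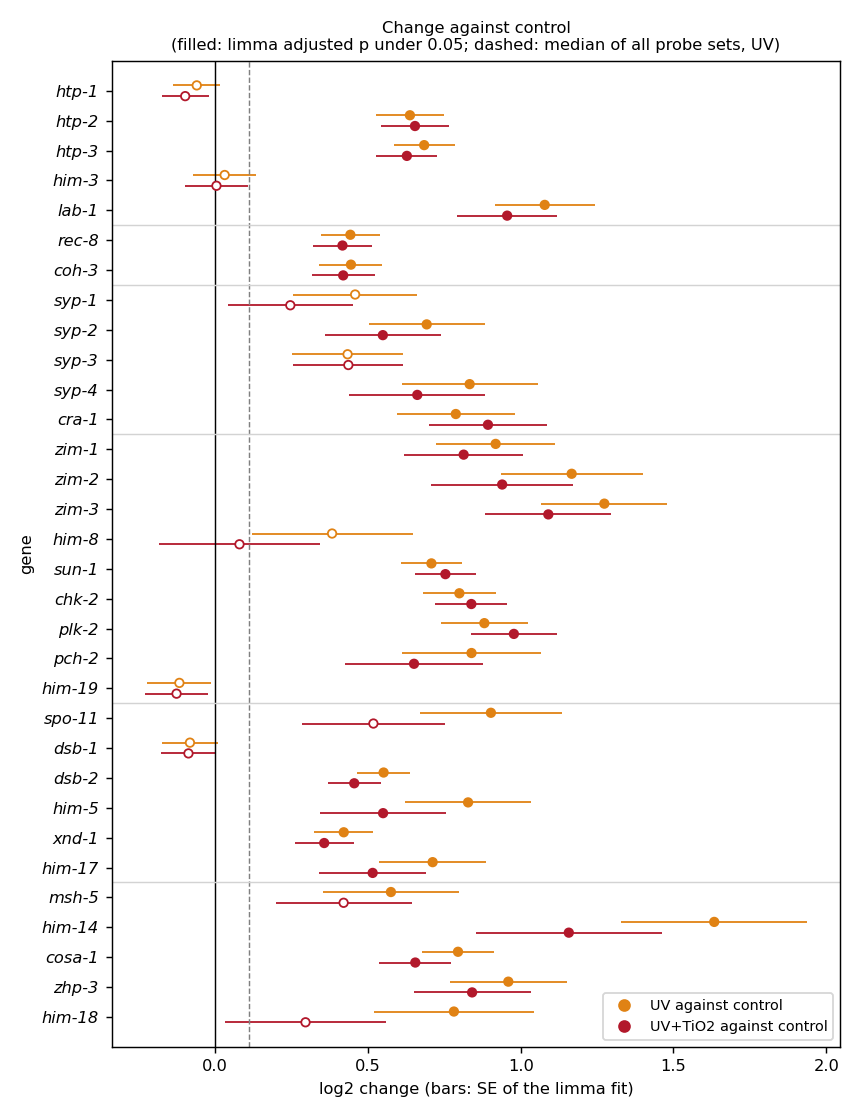
Log2 change of each of the 32 genes in UV and in UV+TiO2 against the shared control arrays, with bars of 1 SE. Filled points passed an adjusted p of 0.05, and the dashed line is the median of all probe sets for UV against control, 0.11. The points of most genes lie right of the line, him-14 farthest, and htp-1, him-3, him-19 and dsb-1 lie near 0.

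TiO2 without UV was compared with control to ask what the particles alone did. Of the 32 members 0 passed by limma, against 0.00443% of all probe sets. An unadjusted p under 0.05 was reached by 2 members and by 1027 of all 22548 probe sets. The median change was −0.01, from −0.67 for him-18 to 0.19 for sun-1. The members with an unadjusted p under 0.05 were him-18 (95% interval −1.24 to −0.10) and htp-1 (change −0.17, interval −0.34 to −0.01). For htp-1 the 3 TiO2 arrays, given above, were all below the 3 controls, by a small step. For him-18 TiO2 replicates 2 and 3 fell within the controls' range.

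UV+TiO2 was compared with UV to ask what TiO2 added to the light. Of the 32 members 0 passed by limma, against 0.0887% of all probe sets. An unadjusted p under 0.05 was reached by 0 members and by 1384 of all 22548 probe sets. Of the members' differences 6 were above 0, against 12555 of all 22548 probe sets. The members' median was −0.11, from −0.49 for him-18 to 0.11 for cra-1, and the median of all probe sets was 0.02. It depended on scaling: the members' median was −0.04 with quantile normalization again and −0.16 with arrays centred on the median. The intervals were not narrow: him-14 differed by −0.48 (95% interval −1.14 to 0.19) and spo-11 by −0.38 (−0.89 to 0.12), so a modest difference could not be detected with 3 arrays a group. The interaction, which asks whether UV acted differently with TiO2 present, passed for 0 of the 32 members by limma, against 0% of all probe sets, and 0 had an unadjusted p under 0.05. Its smallest adjusted p among members was 0.962. Of the members, 25 rose in UV and 22 in UV+TiO2 against the shared controls. The members called in the first only, by their chosen probe sets, were spo-11 (0.90 and 0.52), msh-5 (0.57 and 0.42) and him-18 (0.78 and 0.30). The second msh-5 probe set passed in both by limma, at 0.76 (adjusted p = 0.011) and 0.59 (adjusted p = 0.0353). In UV+TiO2 against UV none of these 3 members passed, so a difference between UV and UV+TiO2 was not shown for them.

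Other genes of meiosis were read from a list of 43, of which 40 were measured, with no member in common. After UV 29 rose and 3 fell, with a median of 0.57, against 27.5% of all probe sets called higher and 23.1% lower. After UV+TiO2 against control 22 rose and 3 fell, with a median of 0.48, against 31.9% and 22.6%. By limma 0 passed in TiO2 against control or UV+TiO2 against UV, against 0.00443% and 0.0887% of all probe sets. At an unadjusted p under 0.05 there were 4 and 0 of them, against 1027 and 1384 of all 22548 probe sets. The smallest p-values after UV belonged to brd-1, the partner of the BRCA1 homologue, which rose by 1.16 (SE 0.08, adjusted p = 1.76e-07 by limma), and to zhp-4, the RING-finger partner of ZHP-3, which rose by 0.89. The gene mjl-1, which encodes a protein of the envelope bridge with SUN-1, rose by 1.13, mre-11, the nuclease that trims breaks, by 0.99, and wapl-1, which releases cohesin, by 0.67.

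The genes that fell were skr-1, a subunit of the SCF ubiquitin ligase that also takes part in synapsis, by 0.75, rad-51, the strand-exchange recombinase, by 0.28, and akir-1, needed for orderly removal of the synaptonemal complex, by 0.25. They were outside the set with the smallest p, except skr-1, and are named because they are the only ones that fell. A further pair of synaptonemal complex genes in the list, syp-5 and syp-6, rose by 0.79 and 0.81, and were named after their values were seen.

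Markers of tissues were read beside the meiosis genes, because the RNA came from whole worms. Of 18 general germline markers 9 rose and 0 fell after UV, with a median of 0.30, and their summed linear level was 34036 to 37015 in the controls and 45706 to 46507 after UV. Of 16 markers of oocytes and eggshell 8 rose and 2 fell, with a median of 0.12 and a summed level of 98451 to 102010 in the controls and 104790 to 108840 after UV. Of 16 sperm markers measured 10 rose and 0 fell, with a median of 0.36, near that of the germline markers. Their summed level moved more, from 1308.1 to 1825.7 in the controls to 3213.9 to 3545.4 after UV. Single sperm markers changed by between 0.14 for spe-26 and 1.65 for msp-142. Embryo markers were mixed, with 3 of 11 up, 3 down and a median of 0.00. Their summed level was 3577.2 to 4095.7 in the controls and 4043.4 to 4411.8 after UV. Of these 11, pal-1 had the highest level and rose by 0.77, while hch-1 fell most, by 4.01 (adjusted p = 1.26e-09 by limma). Beside these marker counts, 27.5% of all probe sets were called higher and 23.1% lower in UV against control.

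Markers of most somatic tissues went the other way. All 9 intestine markers measured fell, with a median of −1.24, and their summed level was 47544 to 49656 in the controls and 21349 to 23555 after UV. All 6 pharynx markers fell (median −1.11, summed level 4046.9 to 5394.1 and then 1774.9 to 1893.7). Of 10 neuron markers 8 fell and 1 rose (median −1.51, summed level 8791 to 9484.8 and then 4477.4 to 4955.6). Of 8 body wall muscle markers 5 fell and 1 rose (median −0.32, summed level 35527 to 38513 and then 31835 to 33423). The exception was the hypodermis list, where 5 of 6 rose and 1, dpy-7, fell by 2.07 (adjusted p = 1.12e-06 by limma). Its median was 0.77, with a summed level of 13206 to 16568 in the controls and 25603 to 26048 after UV. In the TiO2 group the summed level of the germline markers was 34729 to 36658, within the range of the controls. The array values are relative to all RNA of a worm, and the part of this shift between germline and somatic RNA in the rise of the meiosis genes was not tested.

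**Figure D4:**
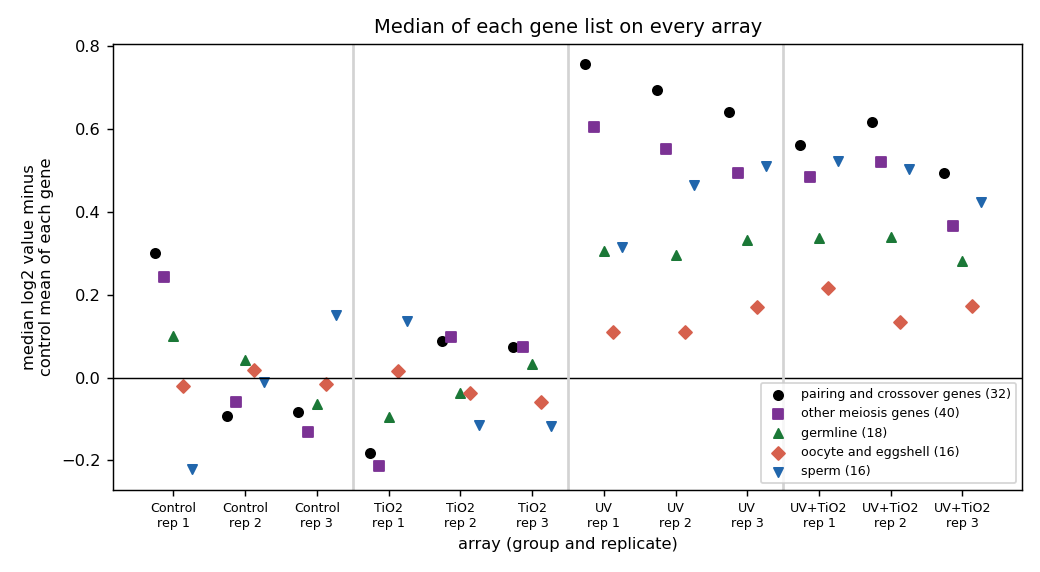
Median log2 value of 5 gene lists on each of the 12 arrays, relative to the control mean, with the groups on the x axis. The 32 meiosis genes and the other meiosis genes are higher on the 6 irradiated arrays than on the others, and the median of the meiosis genes on control replicate 1 is 0.30.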

How the data were processed

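From each sample 300 ng of whole-worm RNA was copied, biotin-labelled and hybridized to an Affymetrix array. The deposited values are log2 expression values. Per the submitters' processing notes the authors used GCOS, the Affymetrix Expression Console and RMA; their versions are not given in the sources used here. As RMA includes quantile normalization between arrays, values are relative to all RNA on an array. Array medians were 6.37 to 6.48 on the irradiated arrays and 6.55 to 6.63 on the others, so they were not level between these groups.

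Of 22625 probe sets 77 controls were left out and 22548 tested, without a filter on low values. Of these 20766 had 1 gene symbol, 887 several and 895 none, by the platform annotation. All 32 members matched RefSeq (assembly WBcel235) by gene number and 0 symbols differed; that table served for names and gene order only. Of the chosen probe sets 10 had the suffix _s_at, and 7 members had 2 probe sets. A limma 3.58.1 model (R 4.3.3) with 4 group means covered all 12 arrays, with 8 residual and 4.37 prior degrees of freedom and Benjamini-Hochberg adjustment over all probe sets, and 0.05 as the threshold. The procedure was tested on simulated data.

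Members and lists were chosen with earlier results of these data known. All 12 values are given for the up to 12 members past the threshold with the largest UV change and for the related genes of the htp, coh, zim and syp families; other members whose 12 values are given were chosen after their values were seen. Other meiosis genes are the 6 with the smallest p. Alternatives were a replicate block, another prior variance, leaving out the lowest 30% of probe sets, other scalings, array weights, only the arrays compared, the mean of a gene's probe sets, and each array left out. A covariate for the width (SD) of each array's values, and the ratios of related genes, were added after seeing the data.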

Additional observations from a re-analysis of the deposited data

How the results depend on the processing

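Counts of called members kept within 1.5 times of the reported ones under every alternative, and no called value changed sign. With each array left out in turn, 23 to 27 members rose in UV against control, 17 to 26 in UV+TiO2 against control and 20 to 25 in UV+TiO2 against TiO2. The shares of all probe sets called in these fits were not computed. The lowest count in UV+TiO2 against control came without control replicate 2 or 3 or UV+TiO2 replicate 1 or 2, where syp-2, syp-4, pch-2, him-5 and him-17 lost their calls. The highest came without control replicate 1. Without TiO2 replicate 1 or UV+TiO2 replicate 1 or 2, syp-3, syp-4, pch-2, him-5 and him-17 lost their calls against TiO2. Of the 25 rises after UV, 23 held in all 21 alternatives, him-18 in 18 and msh-5 in 11. A group with 1 array removed was assumed to vary like the other groups.

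Scaling moved the balance of calls. With arrays centred on the median, 74.6% of all calls in UV against control were higher, against 54.3% as deposited. The median of all probe sets was 0.29, and 27 members rose with a median of 0.89. The shares of calls were 73.1% against 58.6% in UV+TiO2 against control, where 25 members rose. In UV+TiO2 against TiO2 they were 72.7% against 59.3%, and 26 members rose. Of all probe sets tested, centring called 54.2%, 52.4% and 51.3% higher in these comparisons, in the same order. As deposited, those shares of all probe sets were 27.5%, 31.9% and 32.3%. Centring moved the median of all probe sets from 0.11 to 0.29 in UV against control. With the mean of its probe sets him-3 passed (0.33, adjusted p = 0.00772 by limma). With array weights 1 of the other meiosis genes passed in UV+TiO2 against UV, as lower, where 0 passed otherwise, and the cause was not tested. The log2 ratios of the 3 gene pairs kept their direction in all 14 alternatives each, from 0.55 to 0.70 for htp-2 over htp-1, 0.49 to 0.86 for zim-3 over him-8 and 0.55 to 0.94 for dsb-2 over dsb-1. Of 1430 alternative values of named genes whose reported change did not pass, 138 had the opposite sign and again did not pass.

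Whether the replicate numbers pair the samples could not be decided from deviations within groups of 3 arrays. Deviations of same-numbered arrays correlated from −0.71 to 0.50, over 0.1 in 8 of 18 pairs. Between control and UV they correlated at 0.50, 0.09 and 0.47, and between control and TiO2 at −0.71, −0.23 and −0.25. With the replicate block 24 members rose in UV against control, 21 in UV+TiO2 against control and 24 in UV+TiO2 against TiO2, and 24 passed the F-test. The block ended the calls of msh-5 in the first (adjusted p = 0.0657 by limma), him-5 in the second (adjusted p = 0.0563) and syp-3 in the third (adjusted p = 0.0573). No other count of members moved.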
